A study of Mus musculus with 96 samples.

Results

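The thin ascending limb (ATL) and the medullary thick ascending limb (MTAL) are consecutive stretches of the loop of Henle, and they differ in how salt leaves the urine. In the thick limb, the cotransporter NKCC2 takes up sodium, potassium and chloride at the luminal side, potassium returns to the lumen through ROMK, and a sodium pump fed by many mitochondria drives the process. The thin limb has flat cells with few mitochondria, is nearly impermeable to water, and lets sodium and chloride pass down their gradients. The inner medulla around it is hypertonic and poor in oxygen.

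The comparison used every ATL sample and every MTAL sample, 10 of the 96 samples of the series, of which 93 were microdissected and had a column in the expression table. The 4 ATL samples came from 4 mice, numbered 2, 3, 4 and 6, with 1 piece of tubule each. The 6 MTAL samples came from 3 mice, numbered 1, 2 and 3, with 2 pieces each. All were male C57BL/6 mice of 6 to 8 weeks on ordinary chow with free water, and no treatment, transgene or deletion is named. The tubules were dissected by hand, and polyadenylated RNA was amplified as cDNA from a very small input. Values are TPM (a depth-scaled and length-corrected unit), which rescale every sample to the same total and compare genes per unit of length. They keep no read depth, so no interval for counting error is given. A TPM of a bulk piece cannot tell apart fewer cells of a type from less RNA per cell, and the number of cells in each piece was not used here.

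ATL values are given below for mice 2, 3, 4 and 6 in that order, and MTAL values as the lowest, median and highest of the 6 samples. Each difference is the mean of log2(TPM + 1) over the 4 ATL mice minus that over the 3 MTAL mice, with its standard error (SE) and an adjusted p from limma, a linear model fitted to every gene. A gene was called when the adjusted p was under 0.05 and the difference was at least 1, and it was counted as higher in one limb when it was called and all ATL samples also lay on one side of all MTAL samples. An exact permutation test of 4 mice against 3 cannot go below a two-sided p of 0.057, so single genes were judged by the model.

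The 4 ATL samples were not alike. Genes at a TPM of at least 1 numbered 13949, 13532, 23465 and 24647 in ATL and 12567 to 12970 in MTAL. Odorant and vomeronasal receptor genes, which kidney tubules are not known to use, reached that level 23, 15, 512 and 581 times in ATL and 0 to 2 times in MTAL, out of 1437 such genes. In both counts mice 4 and 6 were above mice 2 and 3. The Pearson correlation of log2(TPM + 1) across genes was 0.964 between mice 2 and 3, 0.840 between mice 4 and 6, 0.814 to 0.889 between mice of different pairs, and 0.982 to 0.991 among the MTAL samples. Since the background of ATL varies in this way, each named gene was also tested with mice 2 and 3 alone and with mice 4 and 6 alone. Unless stated, a gene described below as higher in one limb was called with both pairs; counts over lists do not require this.

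**Figure D1:**
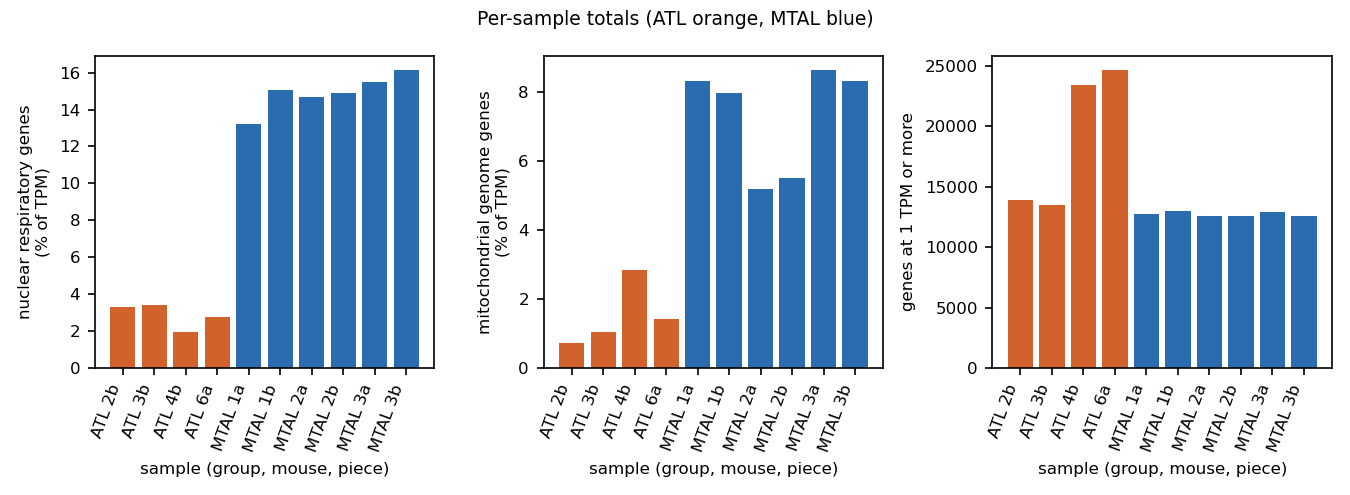
Bars show each of the 10 samples (ATL orange, MTAL blue, labelled by mouse and piece): the percent of all TPM in 88 nuclear genes of the respiratory chain and ATP synthase (left), in the genes of the mitochondrial genome (middle), and how many genes reached a TPM of 1 (right). Both shares were lower in every ATL sample than in every MTAL sample, and ATL mice 4 and 6 had 23465 and 24647 genes against 13949 or fewer in the other samples.

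The labels of the limbs were checked against marker genes. Psca, a small membrane-anchored protein of the Ly6 family, was at 16933, 12848, 9765 and 15484 TPM in ATL and at 2.55, 8.49 and 16.5 TPM in MTAL. Umod, which encodes uromodulin, the most abundant urinary protein and a product of the thick limb, was at 6.41, 11.8, 16.1 and 3.18 TPM in ATL and at 17146, 21184 and 26336 TPM in MTAL. The samples did not overlap in either gene, with mean TPM 1520 times higher in ATL for Psca and 2270 times higher in MTAL for Umod. All 10 markers of the thin ascending limb on the list, among them Psca, Sptssb, Igfbp2, Cldn4, Cryab, Cldn3, Cldn10 and Tfap2b, were higher in ATL, against 7 in the fit to 7 mice and 8 after median ratio rescaling. The list was drawn up with results of these data known, and not all of it is particular to ATL: mean Cldn4 was highest in DTL3 and mean Cryab in the inner medullary collecting duct. Of the 10 thick limb markers 6 were higher in MTAL. The claudins Cldn16 and Cldn19 were higher in ATL, the second not with ATL mice 4 and 6 alone.

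Of 33793 genes tested, 3534 were called and separated with the higher level in ATL (10.5% of genes) and 1513 with the higher level in MTAL (4.48%). Of these, 2380 and 1239 were called in the same direction with both pairs of ATL mice. The shares of 10.5% and 4.48% are the background for every list count below. The ATL excess depended on the pair: mice 2 and 3 alone gave 3365 and 1822 genes, mice 4 and 6 alone gave 12132 and 1923, and leaving out mouse 3 gave 5535 and 1675. The MTAL share of these genes was 30.0%, against 50.1% after rescaling by median ratios and 62.1% after quantile normalization, and the median difference over all genes moved from 0.48 to 0.36 and 0.05. The main fit shares one spread among all 53 mice of the series, while a fit to the 7 ATL and MTAL mice alone gave 1967 and 1027 genes. Giving each group its own weight in the shared fit (0.060 for ATL, 2.2 for MTAL) gave 1810 and 1000. A low weight marks a group whose mice vary more than the shared spread. The SE and adjusted p printed here use the shared spread, so they understate the variation among ATL mice. Where this group weighting or the fit to 7 mice ended the call of a named gene, the loss is given with the gene or its list. For the lists, a count in the fit to 7 mice covers only genes counted in the main fit that were also called there. It can therefore only fall, while the counts after rescaling were made anew and can rise.

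Ranked by the distance from the lowest sample of one limb to the highest of the other, the first 15 in ATL included Psca, Sptssb, Lypd2, Upk3b, Akr1b3, Nrip3, Igfbp2, Tldc2, S100a6, Lamb3, Cldn4, Ccdc3, Psat1 and Atp10b. The first 15 in MTAL were Umod, Gpx6, Kcnj1, Gcgr, Fabp3, Tmem213, Klk1, Car4, Defb1, Slc12a1, Ckb, Tmem72, Spp1, Egf and Mt1. These were ranked on the contrast itself, so their values describe the gap and test nothing further.

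**Figure D2:**
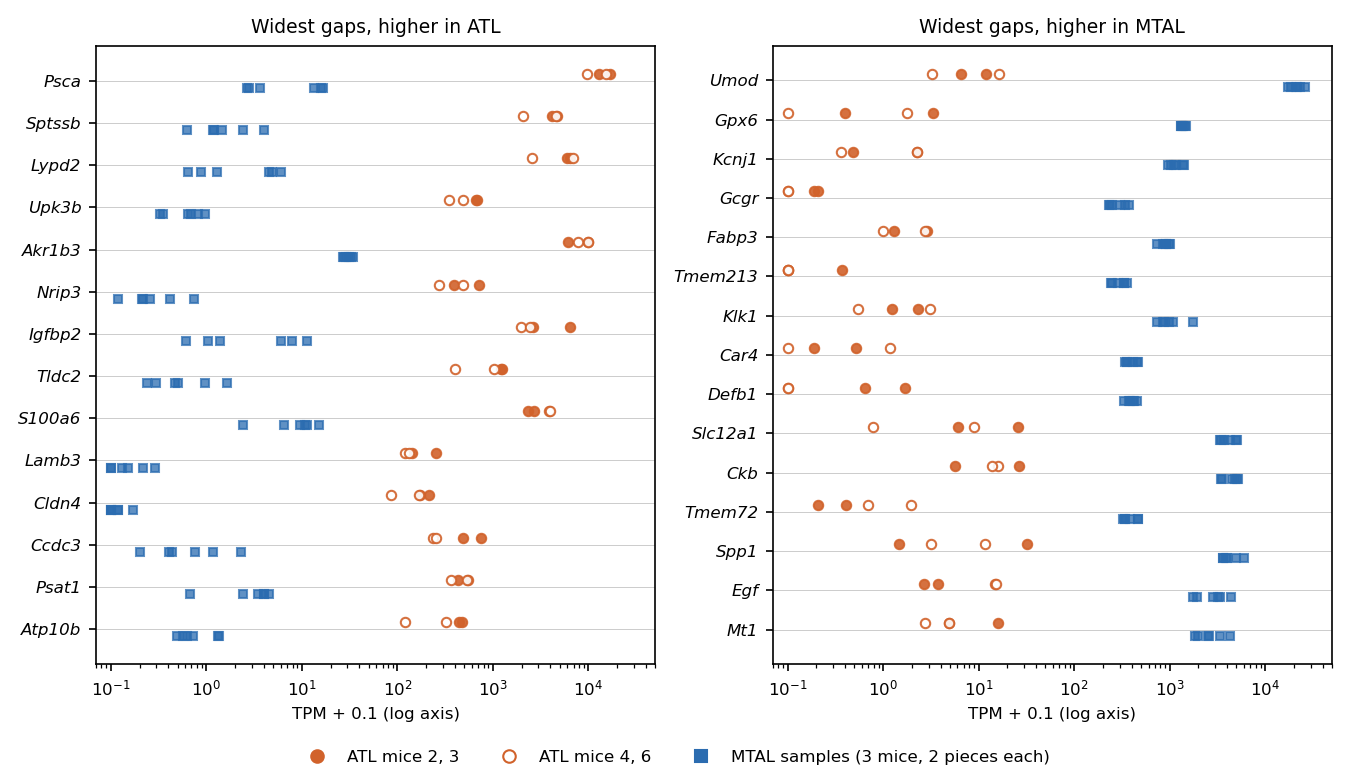
Each point is 1 sample's TPM plus 0.1 on a log axis for genes with the widest gap in each direction. ATL samples are circles (filled for mice 2 and 3, open for mice 4 and 6) and MTAL samples are squares; no gene shows any overlap, and open circles lie to either side of filled ones.

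Sptssb, a subunit of serine palmitoyltransferase that shifts the enzyme toward longer sphingoid bases, was at 4663, 4123, 2062 and 4537 TPM in ATL and 0.53, 1.24 and 3.96 TPM in MTAL. Mouse 4 had the lowest value in ATL, and no MTAL sample came near it. Upk3b, a uroplakin of the urothelium and of mesothelium, was at 683, 667, 352 and 490.3 TPM in ATL and 0.23, 0.57 and 0.86 TPM in MTAL. Of 6 urothelial genes tested, Trp63 (difference 3.21) was also higher in ATL, while Upk1a, Upk1b and Upk3a were neither called nor separated. Nrip3 (396, 716, 269.9 and 492 TPM), Tldc2 (1241, 1211, 404 and 1017 TPM), Ccdc3 (755, 493, 235 and 255 TPM) and the phospholipid flippase Atp10b (471, 444, 121 and 325 TPM) in ATL had highest MTAL samples of 0.65, 1.54, 2.23 and 1.25 TPM. In MTAL, Gpx6, a glutathione peroxidase, was at 1322, 1358 and 1468 TPM, against 0.3, 3.22, 0 and 1.66 TPM in ATL. Gpx1, the widely expressed member of that family, is outside the lists and overlapped between the limbs (212 to 441 TPM in ATL and 427 to 503 TPM in MTAL). Car4, a membrane-bound carbonic anhydrase, was at 342, 387 and 468 TPM in MTAL and 0.09, 0.42, 0 and 1.09 TPM in ATL. Tmem213 and Tmem72, membrane proteins, were at 242 to 359 TPM and 324 to 469 TPM in MTAL, and no ATL sample exceeded 1.85 TPM in either. Defb1, an antimicrobial defensin, was at 331 to 456 TPM in MTAL and 0 to 1.61 TPM in ATL. The metallothioneins Mt1 (1825 to 4312 TPM in MTAL, 2.63 to 16 TPM in ATL) and Mt2 (143 to 613 and 0 to 5.36 TPM), which bind zinc and copper, went the same way. All 3 tested members of that family were higher in MTAL. Mt2 and the family count are outside the lists.

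The cotransporter and the potassium channels of the thick limb were at low levels in ATL. Of 27 genes of this list that were tested, 11 were higher in MTAL and 5 in ATL, against 10 and 3 in the fit to 7 mice; Umod is among the 11. Slc12a1, the gene of NKCC2, was at 5.99, 25.6, 0.69 and 8.76 TPM in ATL and 3343, 4001 and 5008 TPM in MTAL, a difference of -9.09 ± 0.65 (adjusted p = 8.10e-16). Its ATL values spread from 0.69 to 25.6 TPM, with mouse 3 highest. Kcnj1, the gene of ROMK, was at 0.38, 2.14, 2.17 and 0.26 TPM in ATL and 970.1, 1132 and 1423 TPM in MTAL (difference -9.16 ± 0.26, adjusted p = 1.63e-29). Slc9a3, the luminal sodium-proton exchanger NHE3, was at 0.33, 0.49, 1.74 and 3.75 TPM in ATL and 101, 116 and 176 TPM in MTAL. Kcnt1, a sodium-activated potassium channel, was at 0.32, 0.16, 1.57 and 1.25 TPM in ATL and 39.7, 48.5 and 97.8 TPM in MTAL. The basolateral potassium channel subunits Kcnj10 and Kcnj16 were at 7.67 to 12.1 TPM and 124 to 233 TPM in MTAL and at no more than 0.17 and 1.02 TPM in ATL. Slc5a1, the sodium-glucose cotransporter SGLT1, is outside the lists. It was also near 0 in ATL (0.03, 0.88, 1.58 and 0.75 TPM) and at 70.9, 108 and 188 TPM in MTAL.

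Bsnd, which encodes the membrane protein barttin, was higher in ATL. It was at 2779.7, 3024, 1011 and 2149 TPM in ATL and 261, 306 and 367 TPM in MTAL (difference 2.75 ± 0.21, adjusted p = 1.06e-14). No sample of one limb reached the other.

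Genes that regulate the cotransporter were found on both sides. Stk39, encoding SPAK, had a difference of -0.75 ± 0.17 and Oxsr1, encoding its relative OSR1, 0.68 ± 0.20, both under the size needed for a call. Wnk4 was higher in MTAL (82.3 to 218 TPM in ATL, 289 to 426 TPM in MTAL), though not with ATL mice 2 and 3 alone nor in the fit to 7 mice or with group weights. Cab39l, an adaptor that activates these kinases, was higher in ATL, at 1059, 871, 734 and 802 TPM against 115, 128 and 154 TPM in MTAL, while its paralog Cab39 overlapped between the limbs. Wnk1 counted among the 5 genes higher in ATL, but its difference of 1.10 ± 0.23 was not called with ATL mice 2 and 3 alone, in the fit to 7 mice, with group weights or under either rescaling. The phosphatase inhibitors Ppp1r1b (DARPP-32) and Ppp1r1a were higher in MTAL, the first at 1123 to 1475 TPM against 0.41 to 9.49 TPM in ATL and the second at 2369.7 to 2838 TPM against 273 to 524 TPM. Mal, a membrane raft protein that stabilises NKCC2 at the surface, was higher in ATL (1917, 1995, 1084 and 1639.9 TPM) than in MTAL (377, 416 and 513 TPM).

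Of the sodium pump, the gamma subunit was called and the beta subunit was not. Atp1b1, the beta subunit, overlapped between the limbs at 1704, 1481, 1308 and 1588 TPM in ATL and 1333, 1577 and 2311 TPM in MTAL (difference -0.17 ± 0.15, adjusted p = 0.34). The difference between the beta and gamma subunits was not tested. Fxyd2, the gamma subunit that tunes the pump, was at 13957, 9968, 7358 and 10509.5 TPM in ATL and 19275, 23823 and 29668 TPM in MTAL (difference -1.24 ± 0.18), and its call was lost in the fit to 7 mice and with group weights. Of 13 pump and FXYD genes tested, 3, among them Fxyd2 and Fxyd6, were higher in MTAL and 0 in ATL, against 1 and 0 in the fit to 7 mice, and Fxyd6 was not called with ATL mice 2 and 3 alone nor with group weights. Fxyd4 was called as higher in ATL without separation.

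Other channels differed in both directions. Of 28 water, urea and chloride pathway genes tested, 5 were higher in each limb. That is 17.9% in each, against 10.5% in ATL and 4.48% in MTAL over all genes. Kcnk5, the acid-sensitive potassium channel TASK2, was at 48.5, 89, 123 and 34.1 TPM in ATL and 0, 0.31 and 0.78 TPM in MTAL, whereas Kcnk1, another potassium channel of the same family, was at 0.96, 1.84, 0 and 2.56 TPM in ATL and 114, 133 and 251 TPM in MTAL. Slc12a2, the basolateral cotransporter NKCC1, was at 30.2, 19.1, 24.7 and 28.9 TPM in ATL and 1.98, 2.5 and 3.63 TPM in MTAL. The water channel Aqp1, which marks the descending thin limb, was at 0.19, 0.02, 0.42 and 1.08 TPM in ATL and 0.5 to 3.65 TPM in MTAL, against 11650 ± 467 TPM (mean ± SD, 3 mice) in the inner medullary descending limb, DTL3.

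**Figure D3:**
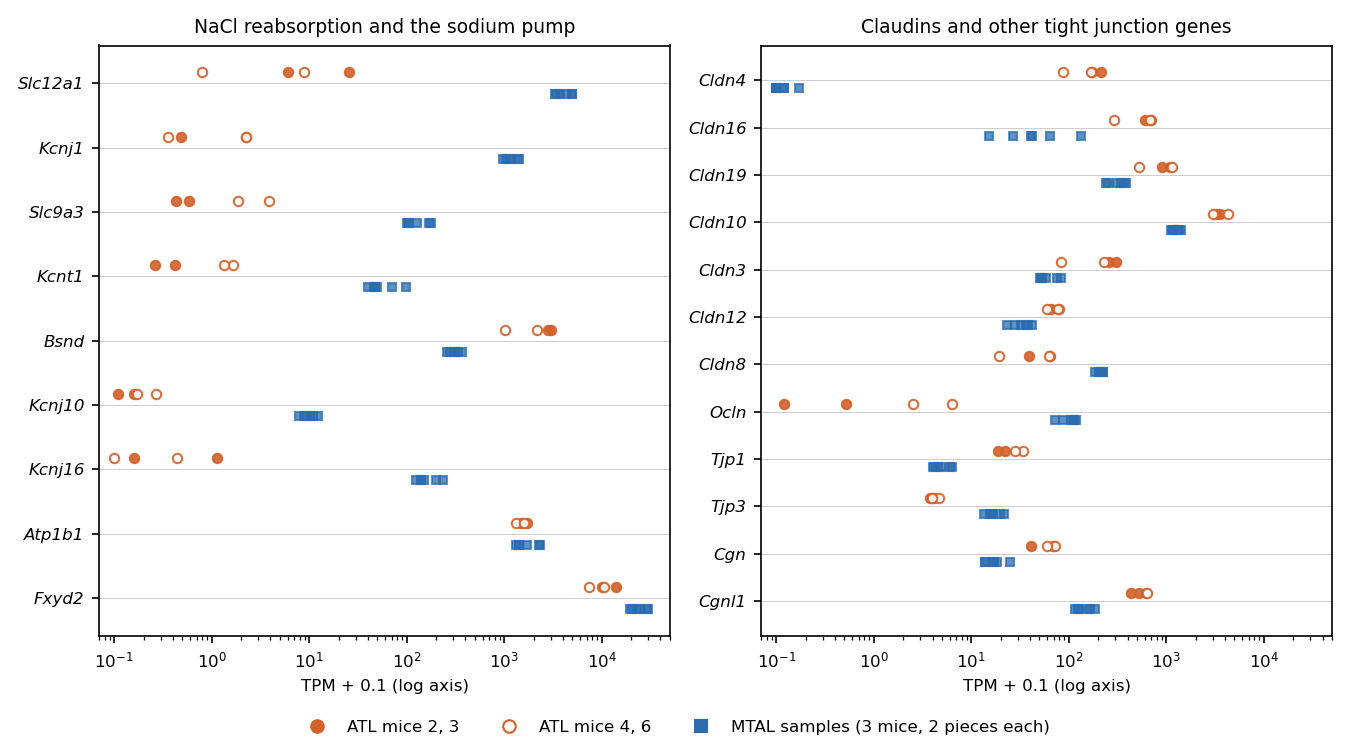
Each point is 1 sample's TPM plus 0.1 on a log axis; ATL samples are circles (filled for mice 2 and 3, open for mice 4 and 6) and MTAL samples are squares. Slc12a1 and Kcnj1 lie to the right in MTAL while Bsnd lies to the right in ATL, Atp1b1 overlaps, and among the claudins Cldn8 alone lies to the right in MTAL.

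Claudins set which ions cross between the cells, and several claudin genes differed between the limbs. Of 21 claudin genes tested, 7 were higher in ATL and 1, Cldn8, in MTAL. The ATL count was 4 after median ratio rescaling, 5 after quantile normalization and 4 in the fit to 7 mice, and Cldn8 stayed higher in MTAL in each. Cldn4 was at 171, 215, 86.8 and 169.6 TPM in ATL and at most 0.07 TPM in MTAL (difference 7.24 ± 0.27, adjusted p = 2.04e-25). In the neighbouring DTL3 it was at 210.1 ± 62 TPM (ATL minus DTL3 -0.42 ± 0.27, adjusted p = 0.26). Cldn10, which forms a sodium pore in the thick limb, was at 3241, 3567, 3008 and 4253 TPM in ATL and 1127, 1242 and 1399.5 TPM in MTAL, and at only 1.43 ± 1.44 TPM in DTL3. Cldn16, which with Cldn19 lets magnesium and calcium leave the thick limb, was at 611, 699, 287 and 685 TPM in ATL and 15.2, 41.2 and 132 TPM in MTAL (difference 3.63 ± 0.38, adjusted p = 1.08e-10). Its MTAL values spread widely, and the cortical thick limb, at 482 ± 23.9 TPM, was closer to ATL than MTAL was. Cldn19 was at 1078, 907, 522 and 1146 TPM in ATL and 239.8, 329 and 389 TPM in MTAL, with an adjusted p of 0.013, and was not called with ATL mice 4 and 6 alone, with a pseudocount of 0.1, after median ratio rescaling, with the replicate number as a block or without MTAL mouse 1. Cldn3 was at 260.1, 307, 83.9 and 227 TPM in ATL and 50.7 to 82.8 TPM in MTAL, with ATL mouse 4 only just above the highest MTAL sample. Cldn8, a barrier claudin of the distal nephron, was at 38.9, 63.9, 19.2 and 62.1 TPM in ATL and 187, 211 and 226 TPM in MTAL. In the fit to 7 mice the calls of Cldn10 and Cldn3 were lost, and with group weights also those of Cldn16, Cldn19 and Cldn12; the last was lost under both rescalings and without MTAL mouse 3 too.

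Other junction genes also differed. Ocln, which encodes occludin, was at 0.02, 0.42, 6.22 and 2.42 TPM in ATL and 71.2, 107 and 119 TPM in MTAL (difference -5.36 ± 0.35, adjusted p = 3.42e-17). Of the zonula occludens genes, Tjp1 was higher in ATL (18.5, 22.3, 33.8 and 28.2 TPM against 3.91, 4.58 and 6.22 TPM) and Tjp3 was higher in MTAL (4.04, 3.68, 4.51 and 3.84 TPM in ATL against 13.4, 16.1 and 21.5 TPM). Mpp5 (82.3 to 122 against 10.7 to 17.2 TPM), Cgnl1 (436 to 629 against 117 to 185 TPM) and Cgn (41 to 71.2 against 13.8 to 24.6 TPM), a polarity scaffold and 2 cingulin genes, were higher in ATL. In all, 7 of 17 junction genes other than claudins were higher in ATL and 2 in MTAL, against 5 and 4 after median ratio rescaling and 5 and 3 after quantile normalization, and the calls of Cgn and Tjp3 were lost with group weights.

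Of 26 genes of calcium and magnesium handling tested, 5 were higher in ATL (19.2%, against 10.5% over all genes). In MTAL 4 were higher (15.4%, against 4.48%). With both ATL pairs 3 of the 5 were called. Cldn10, Cldn16 and Cldn19, described above, are among the 5. The balance turned to 3 and 4 after median ratio rescaling and 4 and 5 after quantile normalization. Casr, the calcium-sensing receptor of the thick limb, was at 0.33, 0.05, 0.5 and 0.64 TPM in ATL and 30.5, 39.2 and 53.9 TPM in MTAL. Rragd, a GTPase of the mTORC1 pathway, and S100g, a small calcium-binding protein, were higher in MTAL, with differences of -2.88 and -2.57, the second not called with group weights. Trpm6, a magnesium channel best known from the distal convoluted tubule, was at 9.83, 14.2, 13.6 and 14 TPM in ATL and 0.05, 0.175 and 0.59 TPM in MTAL. ATL held the next highest mean after the distal convoluted tubule among the 15 groups. The calcium channel genes Trpv5 and Trpv6 were not called.

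A stretch of chromosome 15 that holds Psca and other Ly6 family genes carried members of both patterns; it was looked at after the values of Psca and Ly6a had been seen. RefSeq (GRCm38.p6) lists 21 protein-coding genes from Psca to Ly6g, of which 18 are in the table and 16 were tested. The first 6 in order, Psca, Them6, Slurp1, Lypd2, Slurp2 and Lynx1, were all higher in ATL. Lypd2, another anchored Ly6 protein, was at 6035, 6414, 2546 and 6979.7 TPM in ATL and 0.55, 2.82 and 5.9 TPM in MTAL. Slurp1, a secreted Ly6 protein, was at 102, 114, 43.1 and 153 TPM in ATL and at most 0.27 TPM in MTAL. Lynx1, a modulator of nicotinic receptors, was at 209, 252, 118 and 218 TPM in ATL and 29.1, 39.5 and 56.6 TPM in MTAL. Them6 was at 103, 93.1, 13.4 and 80.2 TPM in ATL and 1.54 to 2.54 TPM in MTAL, and Slurp2 at 4.44, 18.1, 10.9 and 4.66 TPM and 0 to 0.94 TPM. Further along, the 3 genes that were called and separated were all higher in MTAL. Ly6g, the last gene, was called as higher in ATL without separation (difference 1.45 ± 0.51, adjusted p = 0.017). Ly6a, known as Sca-1, was at 51.2, 80.1, 57 and 34 TPM in ATL and 5897, 6103 and 7461 TPM in MTAL (difference -6.87 ± 0.28, adjusted p = 1.98e-24). Ly6e was at 53.9 to 109 TPM in ATL and 138 to 237 TPM in MTAL, and Ly6c1 at 52.6 to 61.5 and 119 to 206 TPM, the latter not called with ATL mice 2 and 3 alone or with the 6 MTAL samples taken singly; group weights ended both calls. Ly6a, Ly6c1 and Ly6c2 are close copies whose reads the quantification could split, so their levels are uncertain. Between the groups lie genes at or near 0 in both limbs, such as Ly6d, Gml, Cyp11b1 and Cyp11b2.

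**Figure D4:**
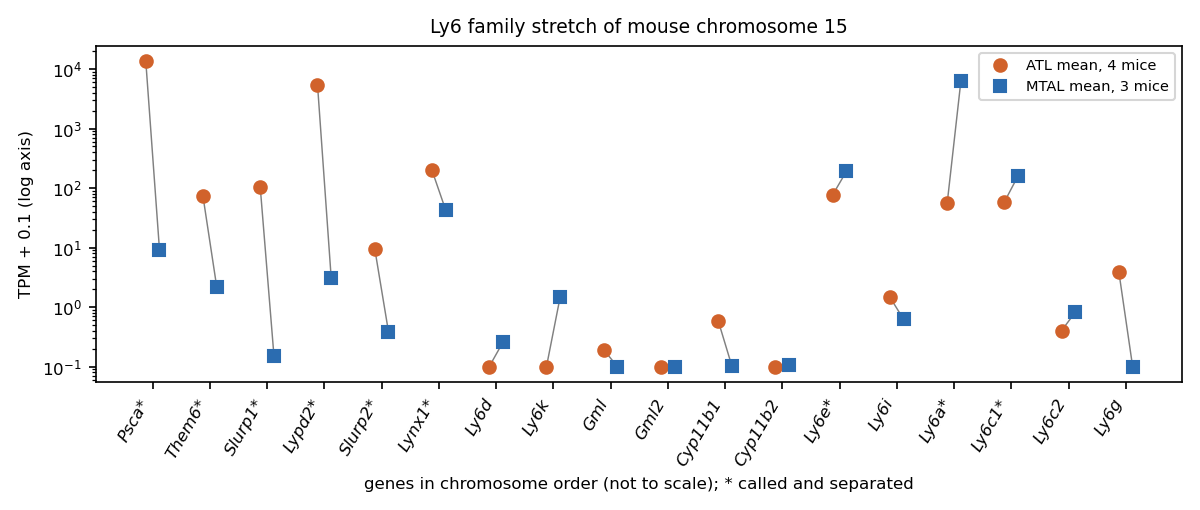
Mean TPM plus 0.1 (log axis) in ATL (circles, 4 mice) and MTAL (squares, 3 mice) for the 18 genes of the table between Psca and Ly6g, in chromosome order and not to scale. An asterisk marks a gene that was called and separated: the first 6 genes are higher in ATL, and Ly6e, Ly6a and Ly6c1 are higher in MTAL.

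Genes of oxidative metabolism were higher in the thick limb across nearly all nuclear subunits tested. Of 87 nuclear genes of the respiratory chain and ATP synthase that were tested, 79 were higher in MTAL and 0 in ATL, and the median difference was -2.28, against 0.48 over all genes tested. The counts were 79 after median ratio rescaling, 71 after quantile normalization and 76 for the genes also called in the fit to 7 mice. These genes together made up 3.3%, 3.41%, 1.93% and 2.76% of all TPM in ATL and 13.2% to 16.1% in MTAL. Atp5b, the catalytic beta subunit of ATP synthase, was at 1809.9, 2139.6, 823 and 1174 TPM in ATL and 10038, 10973 and 11776 TPM in MTAL (difference -2.98 ± 0.16, adjusted p = 5.49e-20), a call lost in the fit to 7 mice. Sdhd, an anchor subunit of complex II, was at 129.9, 201, 86.1 and 103 TPM in ATL and 1179, 1275 and 1395 TPM in MTAL. Uqcrfs1, the Rieske protein of complex III, was at 125, 168, 83.3 and 122 TPM and 1135, 1377 and 1456 TPM. Cox7a1, a complex IV subunit best known from heart and muscle, showed the largest difference of the list (-4.30 ± 0.35), at 15.9 to 24.8 TPM in ATL and 328 to 513 TPM in MTAL. Of the 79, 75 were called with both ATL pairs; Cox7a2l (-1.09) and Ndufa7 (-1.13) were among the others, and the call of Ndufa7 was also lost in the fit to 7 mice (adjusted p = 0.093), after quantile normalization and without ATL mouse 4. The 8 tested genes outside the count were Atp5s, which differed by 0.44 ± 0.18, and the alternative or tissue-restricted subunits Cox4i2, Cox6a2, Cox6b2, Cox7b2, Cox8c, Ndufa11b and Ndufs6b.

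Transcripts of the mitochondrial genome were also higher in MTAL. Of its 13 protein genes, 7 were tested and all 7 were higher in MTAL, while mt-Atp6, mt-Atp8, mt-Co2, mt-Co3, mt-Nd3 and mt-Nd4l are listed at 0 in all 10 samples. Since respiring cells use those genes, a listed 0 is no sign of absence, and the shares here cover the genes with values. Genes of the mitochondrial genome took 0.708%, 1.03%, 2.82% and 1.41% of TPM in ATL and 5.18% to 8.62% in MTAL. mt-Cytb was at 2239, 3079.8, 7434 and 3611 TPM in ATL and 17715, 28308 and 29824 TPM in MTAL, with mouse 4 highest in ATL. In the fit to the 7 ATL and MTAL mice alone 1 of these 7 genes was called, and after quantile normalization 3 were.

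Enzymes that supply the chain with electrons were higher in MTAL as well. All 21 tested genes of the citrate cycle and pyruvate entry were higher in MTAL (median difference -1.88), as were 18 of 22 genes of fatty acid oxidation (median -1.81). Suclg2, the GTP-forming subunit of succinyl-CoA synthetase, was at 0.24, 3.2, 4.37 and 7.26 TPM in ATL and 113, 152 and 162 TPM in MTAL. Idh2, the mitochondrial isocitrate dehydrogenase, was at 544, 674, 326 and 441 TPM and 2533, 2706 and 2779 TPM. Fabp3, the fatty acid-binding protein of heart muscle, was at 1.19, 2.8, 2.62 and 0.9 TPM in ATL and 741, 911 and 998 TPM in MTAL (difference -8.35 ± 0.25, adjusted p = 4.04e-29). Cpt1a, which admits long-chain fatty acids to mitochondria, was at 27, 23.2, 22.3 and 35.9 TPM and 228, 329 and 366 TPM. Slc25a20, Eci1, Eci2 and Decr1 were the 4 genes of that list that were not called, with Eci1 at 231 to 376 TPM in ATL and 201 to 250.4 TPM in MTAL. Genes for other fuels were looked at after their values were seen. Lpl, the lipase that frees fatty acids from lipoproteins, was at 2.9, 3.56, 9.98 and 17.2 TPM in ATL and 1086, 1126 and 1198 TPM in MTAL. The ketone body enzymes Bdh1 and Oxct1 were at 147 to 211 TPM and 1026 to 1179 TPM in MTAL and 0 to 2.52 TPM and 28.3 to 58.9 TPM in ATL. Acss1, the mitochondrial enzyme that activates acetate, was at 0.4 to 2.41 TPM in ATL and 102 to 191 TPM in MTAL.

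Glycolysis genes were found in both directions. Of 28 entries tested, 11 were higher in MTAL (39.3%, against 4.48% over all genes). In ATL 4 were higher (14.3%, near the 10.5% over all genes). Ldhb, the lactate dehydrogenase subunit typical of oxidative tissue, was at 802, 829, 381 and 689 TPM in ATL and 5643, 6205 and 6541 TPM in MTAL, while Ldha, the subunit typical of glycolytic tissue, was not called at 917, 942, 564 and 763 TPM and 474, 615 and 779 TPM. Per unit of length the 2 subunits were close in ATL, and Ldhb was far above Ldha in MTAL. Pfkfb3, an inducible activator of glycolysis, was at 38.9, 35, 43.9 and 19 TPM in ATL and 0.26, 0.75 and 2.07 TPM in MTAL, and Slc16a3, the lactate exporter MCT4, at 10.3, 18.4, 8.15 and 14.6 TPM and 0.02, 0.125 and 0.99 TPM. Slc2a4, the insulin-responsive glucose carrier GLUT4, is outside the lists. It was listed at 0 in 3 ATL mice and at 0.12 TPM in mouse 2, against 95.3, 122 and 163 TPM in MTAL. Slc2a1, the carrier GLUT1, was at 37.3 to 63.5 TPM in ATL and 124 to 230.0 TPM in MTAL. Gapdh had a difference of -0.86 ± 0.11, under the size needed for a call.

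Creatine kinase was among the widest contrasts. Ckb, the cytosolic brain-type enzyme, was at 5.55, 26.4, 15.8 and 13.6 TPM in ATL and 3445, 4684 and 5165 TPM in MTAL (difference -8.24 ± 0.38, adjusted p = 1.74e-22). Ckmt1, its mitochondrial partner, was at 36.4, 39.4, 26.8 and 48.1 TPM and 254, 303 and 409 TPM, and the creatine transporter Slc6a8 had a difference of -2.51. Muscle-type Ckm was not called.

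Of 15 regulators of mitochondrial genes tested, 6 were higher in MTAL and 1, Pprc1, in ATL, against 8 and 0 under both rescalings, and group weights ended the call of Pprc1. Ppargc1a, encoding the coactivator PGC-1 alpha, was at 17.2, 24.3, 11.3 and 16.6 TPM in ATL and 204, 266 and 316 TPM in MTAL (difference -3.89 ± 0.20, adjusted p = 1.81e-20). Perm1, a muscle-type regulator acting with it, was at 0.07, 1.35, 0.55 and 1.97 TPM and 41.1, 56 and 61.6 TPM, and Ppargc1b at 6.45, 6.11, 2.87 and 1.43 TPM and 25.8, 30 and 43.3 TPM. Esrra, an estrogen-related receptor (ERR) that works with PGC-1 alpha, was at 28.5, 28, 28.9 and 32.3 TPM in ATL and 72.5, 93.1 and 131 TPM in MTAL. Its relatives Esrrb (-0.99 ± 0.18) and Esrrg (-1.12 ± 0.28) had lower ATL means but were not called with separation. Tfam and Nrf1, factors for mitochondrial DNA and respiratory genes, differed by -0.94 ± 0.18 and 1.07 ± 0.25, and neither was called with separation.

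The binding element of these receptors was searched as the letters TCAAGGTCA, on both strands, in RefSeq promoters of GRCm38.p6 that run from 250 bases before to 50 after the gene start. It was present in 126 of 27025 genes with a promoter (0.466%) and in 56 of the 16153 tested genes that have one (0.347%). Among genes higher in MTAL 8 of 1122 held it (0.713%), among genes higher in ATL 6 of 2265 (0.265%), and among the respiratory list 2 of 68 (2.94%), Atp5g3 and Sdhd. These shares are descriptions without a test, and a match of letters is not evidence of binding. The 8 genes higher in MTAL were Atp5g3, Sdhd, Timm8b, Msrb2, Defb42, Hcn2, Sgms1 and Tmem191c. Timm8b, a mitochondrial import chaperone, lies head to head with Sdhd and shares its match, so the same site is counted for both. Msrb2 encodes a mitochondrial methionine sulfoxide reductase. Sequences are shown only for Atp5g3, Timm8b and Msrb2, picked for their mitochondrial products. They run 5′ to 3′ on the gene's strand, with the matched element in capitals. It begins 52, 96 and 119 bases before the gene start in that order (TGACCTTGA is the element read on the other strand).
Atp5g3 (chr2:73911360-73911388, minus strand): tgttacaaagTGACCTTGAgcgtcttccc
Timm8b (chr9:50603795-50603823, plus strand): tttcgagggcTCAAGGTCActctacaacc
Msrb2 (chr2:19371507-19371535, plus strand): tccgcgaagaTCAAGGTCAagaggagcaa
The level of Atp5g3, a subunit of the membrane ring of ATP synthase, was 613, 661, 498 and 579 TPM in ATL and 3543, 3818 and 4153 TPM in MTAL, and that of Timm8b 163, 163, 83 and 163 TPM and 322, 409 and 520.1 TPM.

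**Figure D5:**
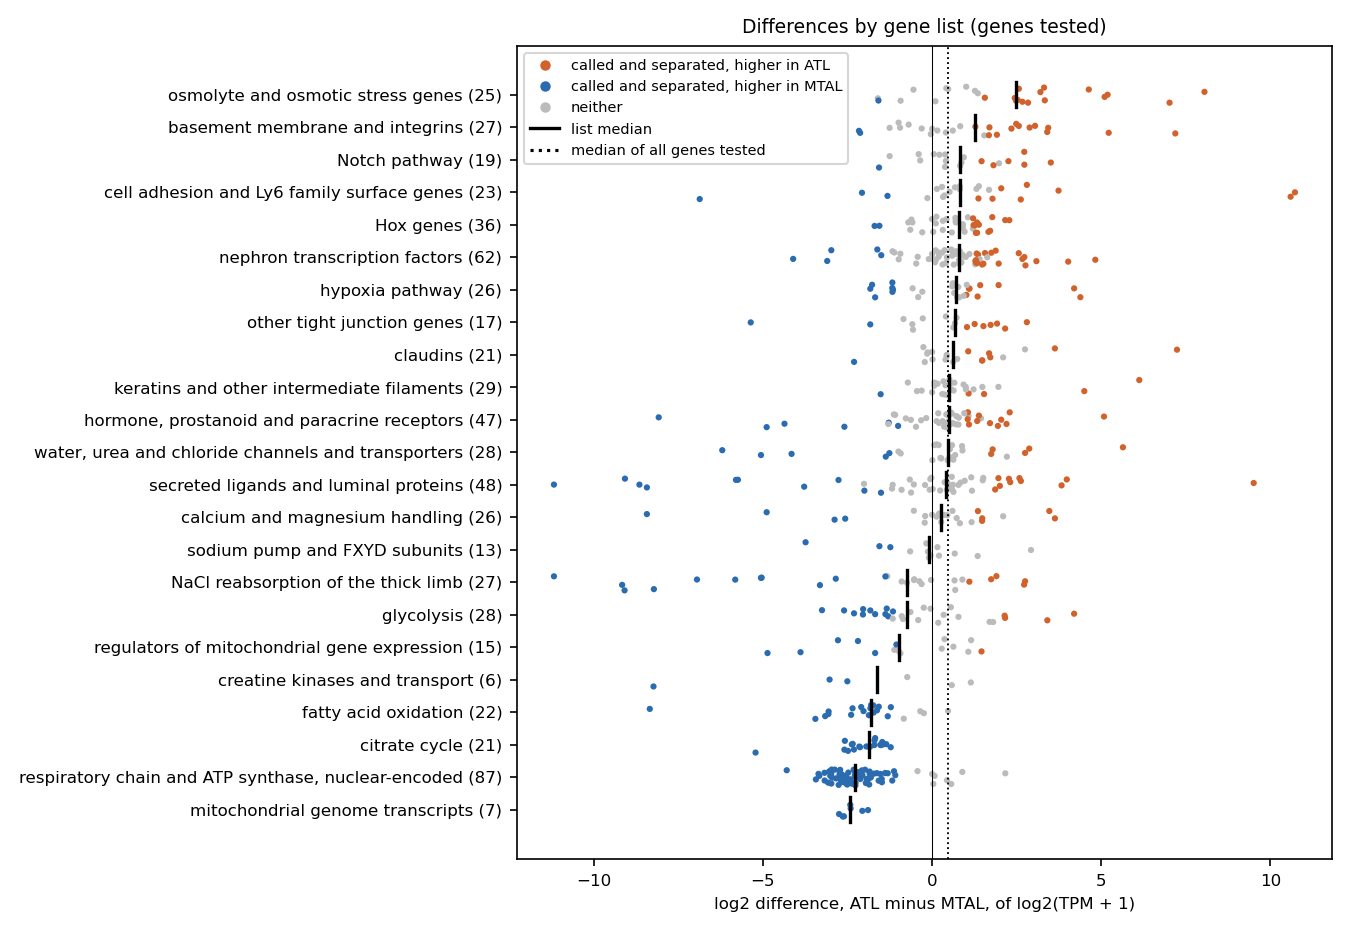
Each point is a tested gene, placed by its ATL minus MTAL difference of log2(TPM + 1); rows are gene lists with the number tested, black bars are list medians, and the dotted line is the median of all genes (0.48). Points for the respiratory chain, citrate cycle and fatty acid oxidation lie almost wholly on the MTAL side, those for osmotic stress genes mostly on the ATL side, and the NaCl list spreads over both.

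Most of the listed genes that cells use against high osmolarity were higher in the thin limb. Cells of the inner medulla balance the surrounding salt with organic osmolytes under the control of the factor NFAT5. Of 25 genes of this list tested, 15 were higher in ATL and 1, Chka, in MTAL, with a median difference of 2.48; the ATL count was 15 and 14 under the 2 rescalings. Nfat5 itself was at 47.5, 50.3, 50.2 and 71.4 TPM in ATL and 6.16, 7.04 and 11.9 TPM in MTAL. Akr1b3, the aldose reductase that makes sorbitol from glucose, was at 9832, 6102, 10008 and 7795 TPM in ATL and 27.1, 30.1 and 34 TPM in MTAL (difference 8.05 ± 0.27, adjusted p = 2.85e-27). Sord, the enzyme that removes sorbitol, went the other way, at 1.42, 4.34, 4.26 and 4.98 TPM in ATL and 156, 174 and 247 TPM in MTAL (difference -5.38 ± 0.27, adjusted p = 6.85e-21); it was set beside Akr1b3 after both values were seen. Slc6a12, the betaine carrier, was at 126, 77.7, 83.2 and 49.5 TPM and 4.57, 7.08 and 11.2 TPM. The myo-inositol carrier Slc5a3 did not follow: it was at 27.3, 40, 118 and 36.3 TPM in ATL and 102, 145 and 197 TPM in MTAL, called as higher in MTAL without separation. The taurine carrier Slc6a6 overlapped between the limbs (1.78 to 23.1 TPM in ATL, 0.1 to 7.63 TPM in MTAL).

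Most stress chaperones on the same list were higher in ATL. Cryab, the small chaperone alpha-B crystallin, was at 11869.9, 11014, 11545 and 9021 TPM in ATL and 218, 305 and 361 TPM in MTAL. Hspa1b, an inducible HSP70 gene nearly identical to Hspa1a and so of uncertain split, was at 769, 685, 1289.6 and 1124 TPM and 17.6, 20.1 and 49.5 TPM. Hspb1 (85.6 to 187 against 8.46 to 18.5 TPM), Hsph1 (332 to 625 against 35.3 to 78.7 TPM) and Hspa4l (70.2 to 213 against 13.8 to 26.3 TPM) were also higher in ATL. Group weights ended the calls of Hspa1a, Hspa1b and Hsph1, and that of Chka. The constitutive Hspa8 was not, with a difference of -0.93 ± 0.35. Sgk1, a kinase induced by salt and steroid hormones, was at 1334, 448, 1455 and 1195 TPM in ATL and 1.95, 7.57 and 13.2 TPM in MTAL, with mouse 3 lowest. Dissection and handling can raise such genes, and 6 of 20 immediate early genes tested (Fosl2, Ier5, Btg2, Dusp1, Zfp36 and Nr4a2) were higher in ATL and 0 in MTAL, 4 of them called with both ATL pairs; quantile normalization gave 3 and 0. The fit to 7 mice ended the calls of Nr4a2 and Zfp36, and group weights those of Nr4a2, Zfp36, Btg2 and Dusp1. The summed TPM of that list was 625 to 1230 in ATL and 255 to 418 in MTAL; Fos (1.54, 73.5, 3.86 and 0 TPM in ATL, 0.22 to 38.5 TPM in MTAL) and Egr1 were not called. The part of handling in the chaperone values was not tested.

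Of 26 hypoxia genes tested, 8 were higher in ATL (30.8%, against 10.5% over all genes) and 7 in MTAL (26.9%, against 4.48%). The counts were 4 and 7 after median ratio rescaling and 4 and 8 after quantile normalization. Hif1a, the oxygen-regulated factor, was at 80.5, 80.2, 100.1 and 75.8 TPM in ATL and 27.9, 36.3 and 57.1 TPM in MTAL, and its call was lost under both rescalings and without MTAL mouse 3. The collagen prolyl hydroxylases P4ha2 (127, 185, 99.1 and 98.6 TPM in ATL, 1.87, 5.3 and 7.79 TPM in MTAL) and P4ha1 were higher in ATL. Vegfa (52 to 73.3 TPM in ATL, 117 to 164 TPM in MTAL), Pdk1, Bnip3 and Egln1 were higher in MTAL. Group weights ended the calls of Hif1a, P4ha1, Vegfa, Pdk1 and Egln1.

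Genes of serine synthesis were chosen after their values were seen. Phgdh, which commits glycolytic carbon to serine, was at 346, 383, 145 and 280.3 TPM in ATL and 1.08, 1.3 and 2 TPM in MTAL. Psat1, the next enzyme, was at 435, 555, 365 and 536 TPM and 0.58, 3.63 and 4.45 TPM. The last enzyme, Psph, was at 22.6 to 32.1 TPM in ATL and 11 to 14.4 TPM in MTAL and was not called with ATL mice 2 and 3 alone, with group weights or under either rescaling. Shmt1, which converts serine to glycine in the cytosol, had the opposite order, at 1.94, 3.46, 7.34 and 7.43 TPM in ATL and 192, 287 and 344 TPM in MTAL.

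Among 47 receptors and adenylyl cyclases tested, 11 were higher in ATL (23.4%, against 10.5% over all genes). In MTAL 6 were higher (12.8%, against 4.48%). This balance turned to 5 and 8 after median ratio rescaling and 4 and 10 after quantile normalization. Gcgr, the glucagon receptor, was at 0.09, 0.11, 0 and 0 TPM in ATL and 229, 276 and 374 TPM in MTAL (difference -8.08 ± 0.24, adjusted p = 2.50e-29). Ptger3, the prostaglandin E2 receptor that opposes cyclic AMP, was at 52.6, 46.5, 20.5 and 25.9 TPM in ATL and 494, 763 and 862 TPM in MTAL. Ptger1, which signals through calcium, had the opposite order (29.1, 11.2, 4.82 and 16.9 TPM in ATL, 1.48, 1.86 and 3.14 TPM in MTAL), and its call was lost in the fit to 7 mice. Adora1, the adenosine A1 receptor, was at 59.8, 80.4, 21.5 and 89.2 TPM in ATL and 0.21, 0.555 and 1.34 TPM in MTAL. Fgfr2 was at 91.5 to 201 TPM in ATL and 26.3 to 40.3 TPM in MTAL, and Adcy6, a cyclase that vasopressin acts through, at 62.4 to 128 TPM and 17.5 to 23.4 TPM. Avpr2, the vasopressin V2 receptor, was present in both and overlapped, at 237, 211, 108 and 201 TPM in ATL and 97.7, 139 and 179.7 TPM in MTAL (difference 0.43 ± 0.31, adjusted p = 0.25). The parathyroid hormone receptor Pth1r (2.54 to 8.4 and 2.02 to 15.1 TPM) and the calcitonin receptor Calcr were not called. Vdr, the vitamin D receptor, was higher in MTAL (7.61 to 23.6 TPM, against 0 to 5.25 TPM in ATL), without a call in the fit to 7 mice.

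Of 48 secreted ligands and luminal proteins tested, 10 were higher in each limb. That is 20.8% in each, against 10.5% in ATL and 4.48% in MTAL over all genes. After quantile normalization the counts were 8 in ATL and 14 in MTAL. In MTAL, Egf, a growth factor and regulator of magnesium transport, was at 1758, 3027 and 4337 TPM, against 3.62, 2.58, 14.7 and 14.9 TPM in ATL (difference -8.43 ± 0.37, adjusted p = 5.08e-23). Spp1, osteopontin, was at 3631, 3971 and 6020.1 TPM in MTAL and 1.35, 31.8, 3.05 and 11.5 TPM in ATL. Klk1, tissue kallikrein, was at 741, 935 and 1771 TPM and 1.15, 2.22, 0.44 and 2.99 TPM; it belongs to a family of close copies, so its level is uncertain. The protease inhibitor genes Wfdc15b (8708 to 10305 TPM in MTAL, 59.3 to 306 TPM in ATL) and Wfdc2 (479 to 876 and 1.3 to 23.1 TPM), and the hormone coreceptor Kl (20.8 to 31.5 and 0.11 to 2.69 TPM) were higher in MTAL. Bmp7, a tubular growth factor, was at 44.9, 50.4 and 59.7 TPM in MTAL and 4.54, 8.5, 7.24 and 7.07 TPM in ATL. In ATL, Igfbp2, an insulin-like growth factor binding protein, was at 2608, 6468, 1979 and 2443 TPM, against 0.51, 3.63 and 11.4 TPM in MTAL. Igfbp7 was at 10436 to 12698 TPM in ATL and 2801 to 3233 TPM in MTAL, and its call was lost in the fit to 7 mice. Lgals3 (galectin 3) was at 1648, 1203, 803 and 1239 TPM in ATL and 46.7, 75.5 and 156 TPM in MTAL, and the chaperone clusterin, Clu, at 75.3, 128, 74 and 59.6 TPM and 2.67, 4.48 and 11.6 TPM. Lcn2, a tubular injury marker, was at 105 to 175 TPM in ATL and 11.8 to 46.6 TPM in MTAL, and Wnt7b, a ligand needed for medullary growth, at 252 to 424 TPM and 40.7 to 115 TPM; group weights ended the calls of both. Prok2, a secreted peptide outside the lists whose value was seen first, was at 105, 61, 69.8 and 46.5 TPM in ATL and 0 in every MTAL sample.

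Notch ligands were split. Jag2 (19.8, 25.6, 7.53 and 34.1 TPM in ATL, 0.15, 0.735 and 1.58 TPM in MTAL) and Dll1 (20.2, 11.9, 3.72 and 12.3 TPM, 0.54, 0.725 and 0.96 TPM) were higher in ATL, and Jag1 was higher in MTAL (3.41 to 7.93 TPM, 0.37 to 2.49 TPM in ATL) except in the fit to 7 mice and with group weights. Of 19 pathway genes tested, 6 were higher in ATL and 1 in MTAL, but quantile normalization gave 2 and 2. Of the 6 and 1, 4 and 0 were also called in the fit to 7 mice, and Heyl was among the calls lost.

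Of 62 nephron transcription factors tested, 19 were higher in ATL and 5 in MTAL, against 13 and 9 after quantile normalization. Bcl6, a repressor, was at 297, 298, 132 and 225 TPM in ATL and 3.95, 7.17 and 11.9 TPM in MTAL (difference 4.82 ± 0.60, adjusted p = 6.55e-09). The kidney-forming factors Pax8 and Pax2 were both higher in ATL, Pax8 at 812, 1144, 692 and 697 TPM against 72.5, 101 and 109 TPM and Pax2 at 16.3, 14.5, 31.8 and 26.1 TPM against 1.61, 2.29 and 3.26 TPM. Klf5 was at 28.1, 26, 20.2 and 16.2 TPM in ATL and 0.25, 0.375 and 0.66 TPM in MTAL, and Elf3, an epithelial factor, at 470.2, 503, 199 and 326 TPM and 46.8, 54.9 and 83.8 TPM. Irx2, a patterning factor of the intermediate nephron, was at 105 to 170.1 TPM in ATL and 28.5 to 43.4 TPM in MTAL, and Emx2 at 19.8 to 39.6 TPM and 6.53 to 11.7 TPM. Tfap2b, an AP-2 factor of the distal nephron, was at 196, 205, 250 and 198 TPM in ATL and 75.2, 90.1 and 98 TPM in MTAL, and its call was lost after median ratio rescaling. In MTAL, Prdm16 was at 25.1, 34.3 and 41.4 TPM, against 0.05, 0.03, 2.68 and 2.74 TPM in ATL. Klf15, a factor of lipid and amino acid metabolism, was at 87 to 129 TPM in MTAL and 6.41 to 32.6 TPM in ATL. The calls of Bcl6 and Tfap2b were lost when each group had its own weight. Tfcp2l1, of the distal nephron, was higher in MTAL (18.1 to 58.8 TPM, 2.2 to 14.1 TPM in ATL), but not in the fit to 7 mice, with group weights or with ATL mice 4 and 6 alone.

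The AP-2 element, searched as GCCNNNGGC (the same on both strands), was in 18.5% of all promoters, 23.7% of those of tested genes, 29.2% of those of genes higher in ATL and 27.1% of those of genes higher in MTAL. The share was thus above that of all tested genes in both limbs. As examples from ATL genes, the window around the match (in capitals) is given for Krt18, Gjb1 and Kcnk5.
Krt18 (chr15:102028123-102028151, plus strand): cgatcctggcGCCCCCGGCtccggtggct
Gjb1 (chrX:101382027-101382055, plus strand): agctgaggctGCCCCTGGCttcttgaccc
Kcnk5 (chr14:20181863-20181891, minus strand): gctgggcgggGCCAGGGGCgggttccgaa
No test was made of these shares.

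Of 36 Hox genes tested, factors that mark position along the body axis, 12 were higher in ATL (33.3%, against 10.5% over all genes). In MTAL 2 were higher (5.56%, near the 4.48% over all genes). After quantile normalization the counts were 4 and 5, and the ATL count was 6 after median ratio rescaling. In the fit to 7 mice the counts were 7 and 1, and the call of Hoxd3 was lost. Hoxd8 was at 34, 36.3, 39.2 and 42.9 TPM in ATL and 98.3, 118 and 127 TPM in MTAL. Hoxa10 had the reverse order (42.2 to 91.7 TPM in ATL, 15.1 to 19.9 TPM in MTAL), as had Hoxb9 (77.6 to 96.6 TPM, 27.4 to 37.1 TPM), whose call was lost after median ratio rescaling. The directions of Hoxa10 and Hoxd8 held under both rescalings, and group weights ended the calls of Hoxa10 and Hoxb9.

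Of the structural lists, basement membrane genes had more members higher in ATL than in MTAL, while few keratins were called. Krt18, a simple epithelial keratin, was at 1796, 1756, 518 and 1085 TPM in ATL and 9.15, 12.2 and 35.3 TPM in MTAL (difference 6.12 ± 0.36, adjusted p = 7.38e-19). Its usual partner Krt8 differed less, at 329.8, 391, 131 and 258 TPM and 71.3, 89.9 and 107 TPM (difference 1.53 ± 0.19), and was not called in the fit to 7 mice. Krt7 was not called. Of 29 keratins and other intermediate filament genes tested, 4 were higher in ATL (Sync, Krt18, Krt8 and Ina; 13.8%, near the 10.5% over all genes) and 1, Krt80, in MTAL; the fit to 7 mice gave 2 and 0, ending the calls of Krt8, Ina and Krt80. Ina was also not called with ATL mice 2 and 3 alone, and Krt80 not with group weights. Of 27 basement membrane and integrin genes tested, 13 were higher in ATL and 2 in MTAL, against 12 and 4 after quantile normalization. Lamb3, the beta chain of laminin 332, was at 253, 142, 119 and 131 TPM in ATL and at most 0.19 TPM in MTAL. The collagen IV chains that are laid down by adult epithelia, Col4a3 (236 to 386 against 40.6 to 58.2 TPM), Col4a4 (127 to 319.8 against 41.4 to 59.4 TPM), Col4a5 (141 to 205 against 12.5 to 17.8 TPM) and Col4a6 (33.9 to 67.8 against 0.01 to 0.93 TPM), were higher in ATL. The chains Col4a1 and Col4a2, common to all basement membranes, were at 0.61 to 13.2 and 0.01 to 3.13 TPM in ATL and 5.67 to 14.1 and 3.88 to 9.96 TPM in MTAL; Col4a2 was the one called with separation, as higher in MTAL, and that call was lost in the fit to 7 mice. Agrn (173 to 242 against 18.6 to 29.9 TPM), Itgb4 (difference 3.4) and Itgb1 (269.7 to 399 against 83.4 to 130.2 TPM), a heparan sulfate proteoglycan and 2 integrin chains, were higher in ATL, and Itgb6 was higher in MTAL (119 to 198 TPM against 24.6 to 57.7 TPM) except with group weights. Of 23 adhesion and Ly6 family surface genes tested, 8 were higher in ATL and 3 in MTAL; the Ly6 members on this list are Psca and Lypd2, counted for ATL, and Ly6a and Ly6e, counted for MTAL. Desmosomal Dsp (37.9 to 42.9 against 4.85 to 7.65 TPM) and Perp (51.6 to 112 against 8.38 to 15.4 TPM) were higher in ATL. Dsg2, also desmosomal, was the other gene counted for MTAL (difference -2.07). The MTAL count of this list was 2 in the fit to 7 mice, and the call of Dsg2 with group weights is not given here. Epcam, Cdh1 and Cdh16, general tubule adhesion genes, were not called.

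Connexin, S100A and annexin genes were counted after some values had been seen, so their counts are descriptions only. Over all genes 10.5% were higher in ATL and 4.48% in MTAL, and in families this small a count of 0 in MTAL is near that share. Of 16 connexin genes tested, 4 were higher in ATL and 0 in MTAL, and Gjb1 and Gjb5 were among the 4. Gjb5 was at 110.0, 74.5, 27.1 and 80.2 TPM in ATL and at most 0.07 TPM in MTAL. Of 12 S100A genes, 5 were higher in ATL and 2 in MTAL. S100a6, a calcium-binding protein, was at 2692, 2361, 3867 and 3932 TPM in ATL and 2.34, 10.1 and 15.2 TPM in MTAL, while S100a1 was at 351, 392, 191 and 342 TPM and 1314, 1576 and 1728 TPM. Of 12 annexins 4 were higher in ATL, among them Anxa1, at 939, 1075, 576 and 784 TPM against 4.69, 11.5 and 18.4 TPM.

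Levels in the neighbouring segments place these contrasts. The inner medullary descending limb DTL3 (3 mice) shares the surroundings of ATL, and the cortical thick limb CTAL (5 mice) continues MTAL. Across 33793 genes, 2.86% were called as higher in ATL than DTL3 and 11.8% as higher in DTL3, while 0.589% were called as higher in MTAL than CTAL and 2.57% as higher in CTAL. These comparisons share the ATL or MTAL samples with the main one, so their values are given side by side. Psca was at 2.1 ± 1.52 TPM (mean ± SD) in DTL3 and 0.066 ± 0.0426 TPM in CTAL, far under ATL, with a difference ATL minus DTL3 of 12.19 ± 0.32 (adjusted p = 4.05e-31). Bsnd was at 0.117 ± 0.202 TPM in DTL3 and 485 ± 65.5 TPM in CTAL. Akr1b3 and Cryab, in contrast, were high in DTL3 as well, at 2934 ± 824 TPM and 11970 ± 2871 TPM, and in the inner medullary collecting duct (IMCD, 3 mice) at 5432 ± 1731 TPM and 14300 ± 6032 TPM. Cryab did not differ between ATL and DTL3 beyond its error (-0.12 ± 0.22, adjusted p = 0.73). Among genes high in MTAL, Slc12a1 was at 6135 ± 844 TPM in CTAL and Ckb at 2151 ± 556 TPM, neither called between the thick limbs. Egf was at 16510 ± 2260 TPM in CTAL (MTAL minus CTAL -2.56 ± 0.36, adjusted p = 9.77e-07) and Klk1 at 9245 ± 1307 TPM (-3.18 ± 0.35, adjusted p = 5.29e-09), so the cortical part held more of both. Cldn16 was also called as higher in CTAL (MTAL minus CTAL -3.47 ± 0.37), while Fxyd2 and Cox7a1 were called as higher in MTAL, by 2.35 ± 0.18 and 1.62 ± 0.33.

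Of 9 genes listed as descending thin limb markers, Lypd2 and Bst1 were higher in ATL and 0 in MTAL. Lypd2 is no descending limb marker in these data: its mean was highest in ATL of the 15 groups, and it was at 46.8 ± 33.4 TPM in DTL3 (ATL minus DTL3 7.23 ± 0.60, adjusted p = 2.40e-13). Bst1, an ectoenzyme, was highest in DTL3 at 864 ± 46.4 TPM, against 1.67, 1.96, 2.12 and 3.45 TPM in ATL, and its call against MTAL was lost in the fit to 7 mice, with group weights and after quantile normalization. Of 9 intercalated cell markers Kit was higher in ATL and Atp6v1b1 in MTAL. That is 11.1% in each limb, against 10.5% in ATL and 4.48% in MTAL over all genes. Summed TPM of this list was 2.9 to 25.8 in ATL and 7.82 to 40.1 in MTAL. Proximal tubule, collecting duct principal cell and stromal markers gave 0 genes higher in either limb among 12, 10 and 12 tested, with 1, 2 and 2 called without separation. Their summed TPM was 5.85 to 73.6, 167 to 248 and 3.18 to 84.3 in ATL and 2.27 to 43.0, 98.2 to 181 and 1.65 to 52.1 in MTAL. Most of the principal cell sum was Avpr2, the receptor described above as present in both limbs, so that sum does not measure principal cell content. Aqp2, which defines principal cells, was at 1.46, 2.26, 25.1 and 10.6 TPM in ATL and at most 1.68 TPM in MTAL. Endothelial markers summed to 621 to 1036 TPM in ATL and 321 to 908 TPM in MTAL, with Plvap at 106 to 157 TPM and 66.8 to 321 TPM and 1 of 12 genes, Esam, higher in ATL, a call lost with ATL mice 4 and 6 alone, in the fit to 7 mice, with group weights and after median ratio rescaling. Leukocyte markers summed to 12.6 to 445 TPM in ATL and 78.7 to 1391 TPM in MTAL. Of 14 tested, 1 was called with separation and 7 without it, of which Cd74, Lyz2, C1qb, C1qc, Tyrobp and Adgre1 were higher on average in MTAL and Cd3g in ATL; with ATL mice 4 and 6 alone the Tyrobp difference was 0.002. Cd74, of antigen-presenting cells, was at 3.95, 5.74, 214 and 3.86 TPM in ATL and 7.46, 247 and 884 TPM in MTAL, and Trac, of T cells, was higher in MTAL (0, 0, 1.79 and 0.77 TPM in ATL, 27.9, 62.6 and 83 TPM in MTAL). Of the 7 erythroid markers, Hbb-bs was at 0 in all 10 samples and Hba-a1 at no more than 0.18 TPM, and 0 were called. The part of these cells in the results above was not tested.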

How the data were processed

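Tubule segments were microdissected from male C57BL/6 mice. Direct-zol kits gave the RNA, the SMARTer ultra-low kit the cDNA and Nextera XT the libraries, per the labels' protocols. The deposited values are TPM computed by the authors for 54532 genes. The submitters' processing notes name STAR 2.5.4a, RSEM 1.3.0, Cell Ranger 3.0.2 and Seurat without roles. The genome build and annotation are not given in the sources used here. TPM keep no depth, and amplification from little RNA adds noise to low genes.

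For each mouse and segment the log2(TPM + 1) values of the pieces were averaged, which left 53 mice in 15 groups, counted per segment because the labels do not say whether a number marks the same animal in different segments. Genes at 1 TPM or more in at least 3 mice were kept (33793). With limma 3.58.1 in R 4.3.3, all groups shared 1 spread (eBayes with trend), and p-values were adjusted over all genes by Benjamini-Hochberg. The method was tested on simulated data, and no outcome of that test is reported here. Symbols are those of the table. Named genes came from the lists or the 15 widest gaps in each direction. For the gaps, the higher group averaged 10 TPM or more and the gene was called with both ATL pairs. Predicted and ribosomal names were passed over. Others came from the promoter matches or, where stated, lay outside the lists or were chosen after their values were seen. Members, lists and the genes outside them were chosen with earlier results of these data known. Promoters are RefSeq's (GRCm38.p6), matched by symbol. Alternatives covered pseudocounts, filters, rescaling, the unit of replication, the samples fitted and each mouse left out. Gene biotypes for the protein-coding alternative came from GENCODE M21 (99.93% of genes found). A PTS2 column matched its group but no single sample. The 3 single-cell samples and the authors' segment means were not used here. Values of some list members are not reported here. Tables were made with Python 3.11.15, numpy 2.4.6 and pandas 2.3.3.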

Additional observations from a re-analysis of the deposited data

Results flagged for a closer look

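In 17 of the 262 genes followed that had a range in ATL, 1 of the 4 mice lay far from the other 3, by Dixon's gap test at its 95% critical value. Chance flags about 1 in 20 such groups. In 10 of the 17 that mouse was mouse 4, and in 4 it was mouse 3.

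Mouse 4 was low, in TPM, for Sptssb (2062.15), Cldn16 (287.3), Lypd2 (2546.17), Them6 (13.43), Timm8b (82.99), Slc25a20 (45.18) and Heyl (0.47), and high for Bdh1 (2.52), Calcr (2.88) and the leukocyte gene Cd74 (213.6). In Sptssb, Cldn16, Lypd2 and Them6 even the low mouse stayed above every MTAL sample. Mouse 3 was high for Cldn7 (253.45), Hoxd3 (1.45) and the metallothionein Mt2 (5.36), and low for Sgk1 (448.37). Mouse 2 was low for Trpm6 (9.83) and Sord (1.42), and mouse 6 was high for Nfat5 (71.37). What sets these mice apart was not tested.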

How the results depend on the processing

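The number of genes higher in ATL depended more on the processing than the number higher in MTAL (3534 and 1513). It was 1923 with a pseudocount of 5, 2230 after median ratio rescaling, 1639 after quantile normalization, 1967 in the fit to ATL and MTAL alone, 1810 with group weights, 12132 with ATL mice 4 and 6 alone and 1074 for a log2 difference of at least 2. Leaving out 1 mouse at a time gave 3428 to 5535, the highest without ATL mouse 3. The MTAL count was 2681 after quantile normalization, 1000 with group weights and 714 for a log2 difference of at least 2, and 1531 to 1675 with 1 mouse left out. The cause was not tested. The other alternatives (a pseudocount of 0.1, other filters, protein-coding genes only, other treatments of the pieces, ATL mice 2 and 3 alone) stayed within 1.5 times the main counts. With the replicate number as a block the counts were 3238 and 1487. The labels do not say whether a number marks the same animal in both limbs. Deviations of the 2 same-numbered pairs of ATL and MTAL mice correlated at 0.042 and -0.120 across genes and those of differently numbered pairs at -0.064 and 0.077, which does not settle it. Of 212 genes followed through the alternatives and called with separation, 135 lost the call under no alternative run for them (Trac, no protein-coding gene, was not in the protein-coding one). Of the 275 followed, 1 called gene changed sign, Tyrobp, at 0.002 with ATL mice 4 and 6 alone. Depth is unknown, so genes near 0 TPM cannot be told from undetected ones.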
